A study of Mus musculus with 6 samples.

Results

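Cytosolic ribosomal protein genes encode the protein part of the ribosome that translates messages from the nucleus. They were taken here as every platform symbol that begins with Rpl or Rps and a digit, plus Rplp0, Rplp1, Rplp2 and Rpsa, without the S6 kinases (Rps6k) and without pseudogene symbols. This rule found 58 genes, read by 85 probes, among the 17711 symbols on the array. A gene was tested on its probe with the highest mean of the deposited log2 values among probes detected (detection p under 0.05) on at least 3 of 6 arrays, which left 52 of the 58 genes among 8743 genes tested.

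The ribosome has a small subunit, which reads the message and holds the Rps proteins, and a large subunit, which joins amino acids and holds the Rpl proteins. Most of these proteins occur once per ribosome, and cells make them in matched amounts. Their messages begin with a run of pyrimidines, the 5′ terminal oligopyrimidine tract, through which mTOR signalling controls their translation in mammalian cells. T cells build many ribosomes when they leave quiescence.

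The study measured RNA of regulatory T cells from bone marrow of C57/B6 mice on Illumina arrays, 3 arrays of Blimp1 +/gfp, which keeps 1 working copy of Blimp1, and 3 of Blimp1 gfp/gfp. As background on the mouse line, gfp was placed in Prdm1, which encodes the repressor Blimp-1, and cells with gfp on both copies lack functional Blimp-1; every sample carries at least 1 gfp allele. The labels give no age, promoter, sort or gate, and say nothing of pooling or of how many animals gave the 3 samples of each genotype. The p-values therefore cover the variation among these samples only, and that variation may be technical. 1 BeadChip held all Blimp1 +/gfp arrays and another all Blimp1 gfp/gfp arrays, and effects of chip and genotype cannot be told apart. The Y-linked Eif2s3y was 10.49, 10.53 and 10.68 in Blimp1 +/gfp and near background in Blimp1 gfp/gfp (5.01, 5.23 and 5.46; detected on 3 of 6 arrays), so Y-linked signal went with genotype on every array and cannot be told apart from it either. On each array 14694 to 16067 of 46632 probes were detected. All 7 regulatory T cell markers were tested, and Foxp3, their defining factor, was detected on all 6 arrays at log2 intensities between 11.44 and 12.66. Tnfrsf18, which encodes the surface receptor GITR, was the 1 marker of the 7 that changed, at 13.57, 13.37 and 13.33 against 12.03, 12.60 and 12.31 (-1.11 ± 0.18; limma, Benjamini-Hochberg adjusted p = 0.0242). Prdm1 was 5.76, 5.82 and 5.50 in Blimp1 +/gfp and 7.14, 7.75 and 7.54 in Blimp1 gfp/gfp, higher by 1.79 ± 0.20 (SE), but the place of its probes relative to the inserted gfp is not known here, and it checks nothing about the labels. In bulk RNA of this kind, fewer cells of a type and less RNA per cell cannot be told apart.

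The start sites of 7 members are shown as examples with a pyrimidine run near the annotated start, though not always beginning at it. They include members from both ends of the range of differences described below. Each line holds 15 bases before and 15 from the annotated start of transcription, on the gene's strand, from RefSeq on GRCm38.p6. Capitals mark the pyrimidine run from its first C, so any T just before that C is in lower case.
Rps18 (chr17:33955651-33955680, minus strand): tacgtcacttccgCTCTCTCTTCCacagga
Rps27 (chr3:90213634-90213663, minus strand): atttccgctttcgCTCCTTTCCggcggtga
Rpl28 (chr7:4792950-4792979, plus strand): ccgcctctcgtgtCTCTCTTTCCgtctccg
Rpl35 (chr2:39005117-39005146, minus strand): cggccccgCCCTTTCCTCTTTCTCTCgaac
Rpl38 (chr11:114668565-114668594, plus strand): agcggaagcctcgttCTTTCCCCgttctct
Rps15a (chr7:118116133-118116162, minus strand): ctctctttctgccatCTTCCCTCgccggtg
Rpl14 (chr9:120571502-120571531, plus strand): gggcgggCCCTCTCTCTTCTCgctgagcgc

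RefSeq start windows were matched by symbol for 42 of the 52 tested members, as 52 windows of 300 bases. A run of at least 6 pyrimidines with a C first, on the gene's strand and beginning between 10 bases before and 20 bases after the start, was present in 23 of these windows (44.2%), belonging to 21 members. The same run was present in 23.1% of the 9148 windows of the other tested genes and in 24.3% of all 32851 windows. The letters CCGGAAG, the core of sites bound by ETS factors, were found on either strand in 26.9% of the members' windows, 18% of those of the other tested genes and 8.86% of all windows. The reverse of that motif, CTTCCGG, can overlap the pyrimidine run. AAGATGG, part of the YY1 motif, was found on either strand in 17.3%, 7.55% and 6.34%, GGGCGG, the GC box, in 63.5%, 61.9% and 35.7%, and TATAAA in 11.5%, 7.35% and 13.6%. These matches describe the letters in the windows and show no binding.

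None of the tested ribosomal protein genes passed the test for a difference between the genotypes. Not every ribosomal protein is covered, as Rpl3 and Rps4x, for example, were not among the tested genes. Of the 52 tested members, 0 were higher and 0 lower in Blimp1 gfp/gfp (limma, Benjamini-Hochberg adjusted p under 0.05), where 4.12% of all 8743 genes passed, 2.42% higher and 1.69% lower. In limma, 3 members were higher and 0 lower with an unadjusted p under 0.05, against 11.3% and 7.22% of all genes. The smallest adjusted p among the members was 0.206 (limma, Benjamini-Hochberg). The members' log2 differences ran from -0.41 to 0.86 with a median of 0.067, and over all tested genes the median was 0.032. The differences were above 0 for 38 of 52 members (73.1%) and for 54.7% of all genes.

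The size of the differences in probe signal was bounded closely for most members. Whether signals near the top of the scale follow the transcript in proportion was not tested, so the intervals bound the signal only. The 95% interval of the difference lay within 2-fold in either direction for 48 of 52 members (92.3%), against 73.5% of all genes, and within 1.5-fold for 36 (69.2%), against 32.7%. The 4 members whose interval reached past 2-fold were Rpl36al, Rpl4, Rps15a and Rps24, each with a mean log2 intensity under 10. Values of the genotypes did not overlap for 6 of 52 members (11.5%), 5 higher and 1 lower in Blimp1 gfp/gfp, where this held for 25.8% of all genes, 15.4% higher and 10.4% lower.

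**Figure D1:**
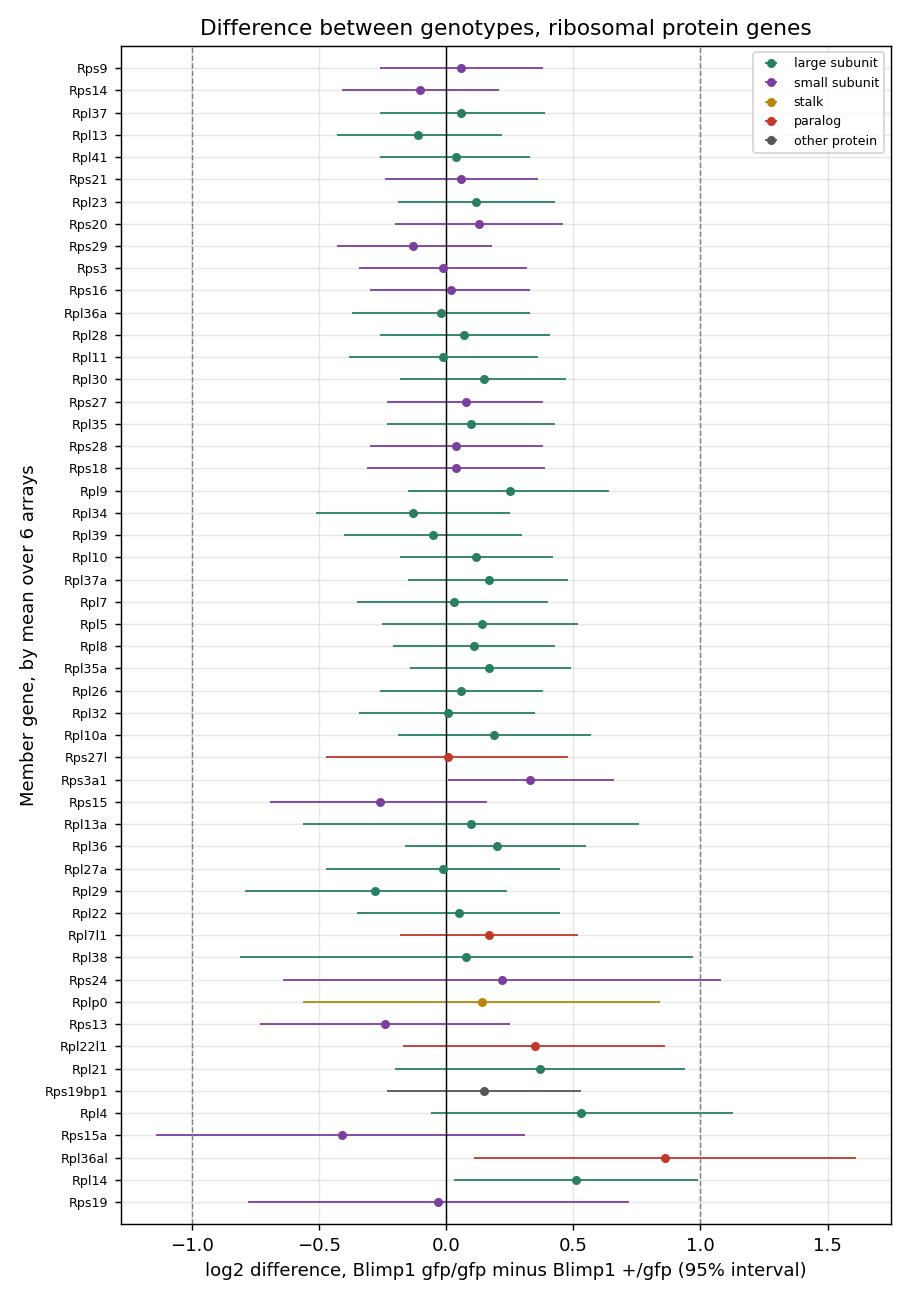
The log2 difference between the genotypes (x axis, Blimp1 gfp/gfp minus Blimp1 +/gfp) is plotted for each of the 52 members with its 95% interval (bars), ordered by mean signal and coloured by class, with dashed lines at 2-fold. The intervals of 48 members lie between the dashed lines, and those of Rps3a1, Rpl14 and Rpl36al begin just above 0.

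The members' signals crowded at the top of the scale. A probe's signal depends on how well it binds as well as on its transcript, so levels are not read as amounts of transcript. The ranks and shares below describe probe signal, and levels serve to sort the members by precision. The mean log2 intensity was 14 or more for 30 members, and 29 of the 52 were among the 100 tested genes with the highest means. On Blimp1 +/gfp replicate 1 and Blimp1 gfp/gfp replicate 1 the brightest probe of the array was that of Rps9. The members together made up 6.74% to 7.79% of the summed intensity of the tested genes on an array.

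**Figure D2:**
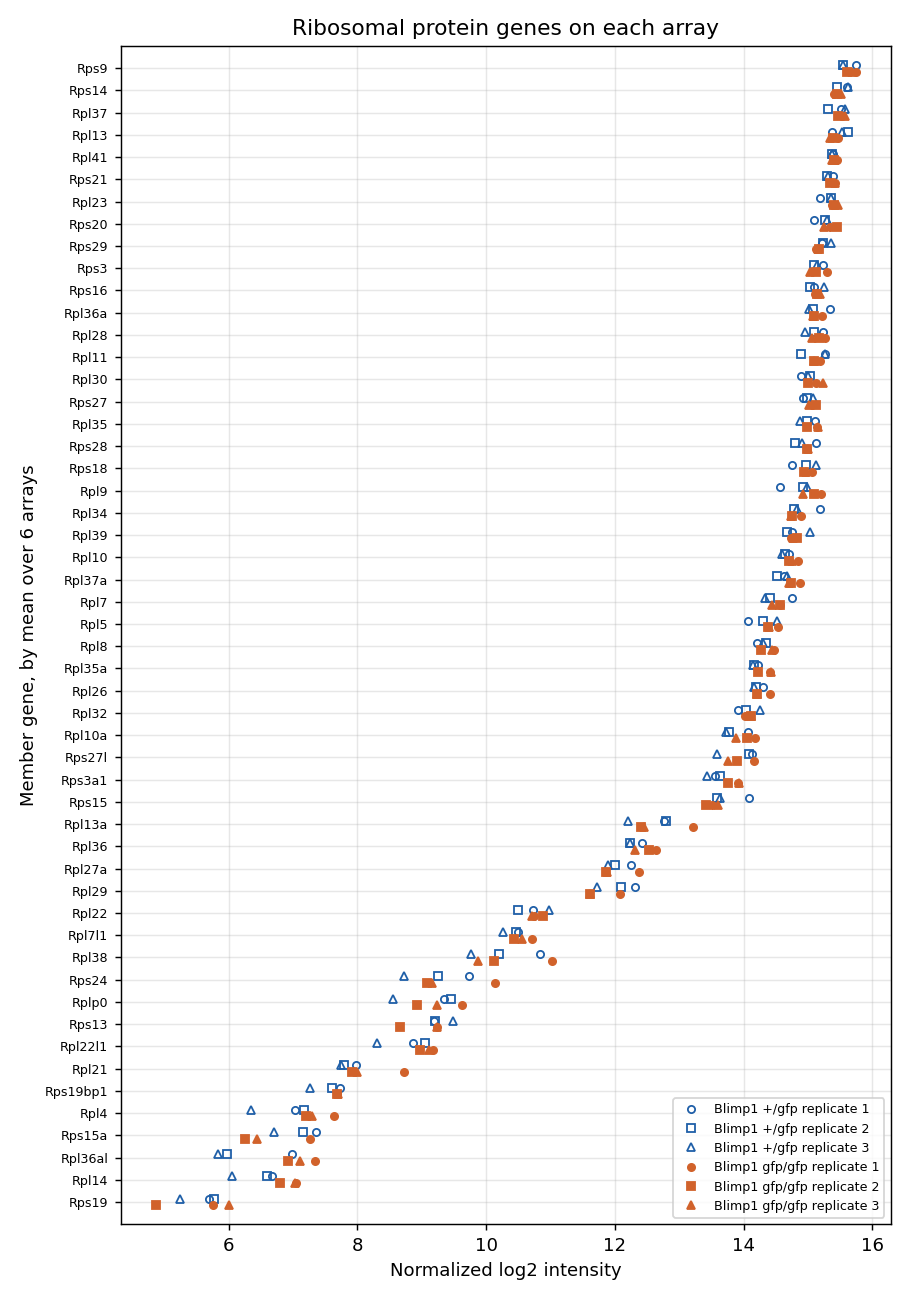
Each row is a member, ordered by its mean over 6 arrays, and each point is the normalized log2 intensity on 1 array (open blue, Blimp1 +/gfp; filled orange, Blimp1 gfp/gfp; shapes mark replicates). The 30 members with a mean of 14 or more have closely stacked points, and the spread between arrays is wider among the members below.

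The spread between arrays was small among the bright members. For the 30 with a mean of 14 or more, the median SD within a genotype was 0.10 and the median standard error of the difference 0.137, and every difference lay between -0.13 and 0.25. All 30 intervals lay within 2-fold, and 29 of 30 within 1.5-fold. Among the other 79 tested genes as bright, 77 intervals lay within 2-fold and 46 within 1.5-fold, the median SD was 0.162, and 0 genes passed in limma (Benjamini-Hochberg adjusted p under 0.05; at an unadjusted p under 0.05, 1 higher and 4 lower). For the 11 members with a mean under 10, the median SD was 0.353, and 7 of 11 intervals lay within 2-fold. Across the 52 members, the Spearman correlation of the mean level with the absolute difference was -0.51. With the sum of the SDs of both genotypes it was -0.80. Both describe members that share the same arrays.

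**Figure D3:**
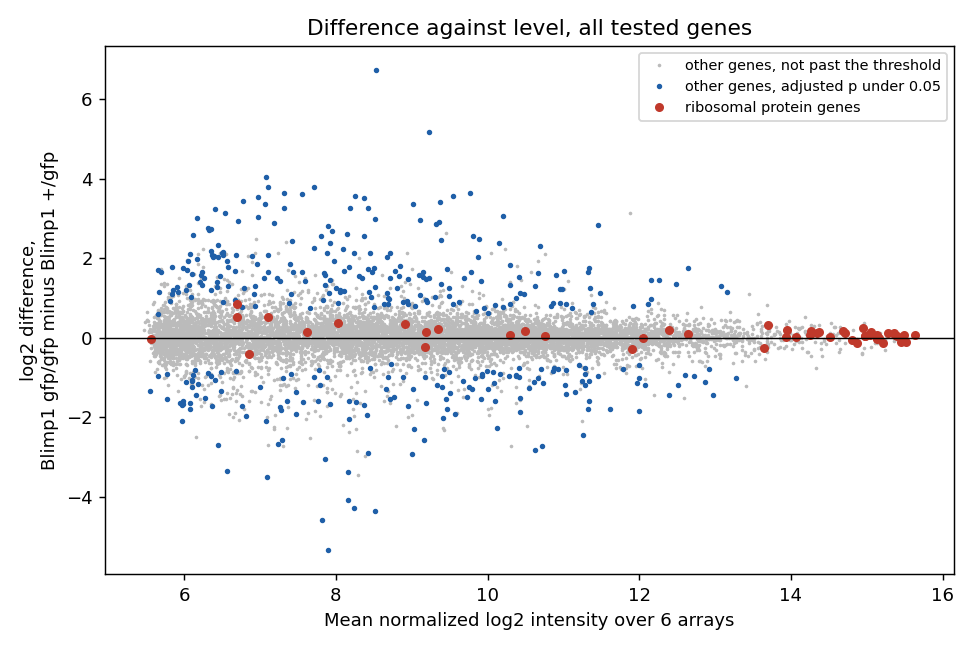
The log2 difference (y axis) of every tested gene is plotted against its mean log2 intensity over 6 arrays (x axis), with other genes in grey, other genes with an adjusted p under 0.05 in blue and the 52 members in red. The members lie near 0, and the genes past the threshold have lower signals than the 30 brightest members.

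Proteins of the small subunit gave 16 tested members, 9 with a difference above 0 and 7 below, with a median of 0.028. Rps9, a protein near the decoding centre, was 15.74, 15.55 and 15.55 in Blimp1 +/gfp and 15.74, 15.60 and 15.69 in Blimp1 gfp/gfp, and the difference was 0.06 ± 0.13 (SE), at an adjusted p of 0.869 in limma (Benjamini-Hochberg). On this tested probe the genotypes overlapped. Rps14, of the platform that carries the message, was 15.60, 15.45 and 15.62 against 15.40, 15.45 and 15.51, a difference of -0.10 ± 0.13. Rps3, which lines the entry of the message channel, differed by -0.01 ± 0.14, with a 95% interval of -0.34 to 0.32.

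Rps29, a zinc-binding protein of the small subunit's head, was the only member with all Blimp1 gfp/gfp values (15.12, 15.18 and 15.15) below all Blimp1 +/gfp values (15.22, 15.24 and 15.36). The difference was -0.13 ± 0.13 (SE; limma, Benjamini-Hochberg adjusted p = 0.681). Rps3a1, which lies where initiation factor eIF3 docks, was 13.55, 13.63 and 13.43 in Blimp1 +/gfp and 13.92, 13.76 and 13.93 in Blimp1 gfp/gfp. Its groups did not overlap, and the difference was 0.33 ± 0.14, a 1.26-fold ratio (95% interval 1.01 to 1.58), at an adjusted p of 0.251 in limma (Benjamini-Hochberg).

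Rps15a had the lowest difference of the members. It was 7.35, 7.15 and 6.71 in Blimp1 +/gfp and 7.27, 6.25 and 6.44 in Blimp1 gfp/gfp, and the difference was -0.41 ± 0.30 (SE), at an adjusted p of 0.545 in limma (Benjamini-Hochberg). Blimp1 gfp/gfp replicate 1 lay inside the Blimp1 +/gfp range and the other two below it. Rps15, whose tail reaches the decoding centre, was 14.09, 13.58 and 13.64 against 13.51, 13.41 and 13.60, a difference of -0.26 ± 0.18. Here Blimp1 +/gfp replicate 1 stood above the other 5 arrays, and without it the difference was -0.11. Rps13 differed by -0.24 ± 0.21, where Blimp1 gfp/gfp replicate 2 (8.66) was the lowest array, and by -0.05 without it.

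Rps19, the gene most often mutated in human Diamond-Blackfan anaemia, had the dimmest tested probe, detected on 3 of 6 arrays. Its values were 5.70, 5.77 and 5.24 in Blimp1 +/gfp and 5.75, 4.87 and 6.0 in Blimp1 gfp/gfp. The difference was -0.03 ± 0.31, with an interval of -0.78 to 0.72, and it changed sign with the omission of single arrays. Rps24, also mutated in that anaemia, was 9.73, 9.25 and 8.73 against 10.14, 9.08 and 9.16, a difference of 0.22 ± 0.36 with overlapping groups.

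Proteins of the large subunit gave 30 tested members, 23 with a difference above 0 and 7 below, with a median of 0.090. Rpl5 and Rpl11 carry the 5S RNA into the ribosome and bind the p53 regulator Mdm2 when ribosome assembly fails. Rpl5 was 14.07, 14.30 and 14.52 in Blimp1 +/gfp and 14.54, 14.38 and 14.39 in Blimp1 gfp/gfp, a difference of 0.14 ± 0.16. Rpl11 was 15.26, 14.89 and 15.26 against 15.19, 15.10 and 15.10, a difference of -0.01 ± 0.15. Both overlapped between the genotypes, and their intervals (-0.25 to 0.52 and -0.38 to 0.36) lay within 1.5-fold.

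Rpl14 and Rpl4 were higher on all 3 Blimp1 gfp/gfp arrays than on any Blimp1 +/gfp array, but neither passed. Rpl14 was 6.68, 6.59 and 6.05 in Blimp1 +/gfp and 7.04, 6.80 and 7.03 in Blimp1 gfp/gfp, a difference of 0.51 ± 0.20 and a 1.43-fold ratio (limma, Benjamini-Hochberg adjusted p = 0.238). Rpl4, which lines the exit tunnel of the growing chain, was 7.03, 7.17 and 6.34 against 7.64, 7.20 and 7.29, a difference of 0.53 ± 0.25 (limma, Benjamini-Hochberg adjusted p = 0.323). In both genes Blimp1 +/gfp replicate 3 was the lowest of the 6 arrays. Without that replicate, the differences were 0.32 for Rpl14 and 0.28 for Rpl4.

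Rpl23 and Rpl37a also did not overlap on their tested probes, at smaller sizes. Rpl23 was 15.19, 15.36 and 15.36 in Blimp1 +/gfp and 15.38, 15.41 and 15.47 in Blimp1 gfp/gfp, a difference of 0.12 ± 0.13. Its other kept probe, with a mean of 10.88, overlapped between the genotypes and differed by -0.05 ± 0.20. Rpl37a was 14.63, 14.52 and 14.67 against 14.87, 14.73 and 14.71, a difference of 0.17 ± 0.13. For both, the gap between the groups was smaller than the spread within a group.

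Rpl9 had the largest difference among the 30 bright members. It was 14.57, 14.93 and 14.99 in Blimp1 +/gfp and 15.20, 15.09 and 14.93 in Blimp1 gfp/gfp, a difference of 0.25 ± 0.17 (limma, Benjamini-Hochberg adjusted p = 0.505). Blimp1 +/gfp replicate 1 was its lowest array, and the other values overlapped. On its tested probe Rpl21 differed by 0.37 ± 0.24, with Blimp1 gfp/gfp replicate 1 (8.73) above the other 5 arrays (7.75 to 7.99). Without that array the difference was 0.11. On the negative side, Rpl29 differed by -0.28 ± 0.22 and Rpl34 by -0.13 ± 0.16.

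Among the brightest of the large subunit, Rpl37 differed by 0.06 ± 0.14, Rpl13 by -0.11 ± 0.14 and Rpl41, the smallest ribosomal protein, by 0.04 ± 0.12. The signs of Rpl37 and Rpl41, and that of Rps9, turned under cyclic loess (-0.04, -0.04 and -0.01). Rpl38, which in mouse embryos is needed for the translation of Hox messages, was 10.84, 10.20 and 9.76 in Blimp1 +/gfp and 11.02, 10.13 and 9.88 in Blimp1 gfp/gfp. Its 3 replicates spread over about as wide a range in each genotype, and the difference was 0.08 ± 0.38.

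Rplp0, the base of the stalk that recruits elongation factors, was 9.35, 9.46 and 8.55 in Blimp1 +/gfp and 9.62, 8.92 and 9.23 in Blimp1 gfp/gfp, a difference of 0.14 ± 0.29. It was -0.14 without Blimp1 +/gfp replicate 3. Rplp2, which forms the stalk's tip, was detected on 1 of 6 arrays and was not tested, and Rplp1 had no probe with a single symbol. The other untested members of the 58 were Rpl17, Rpl3l, Rps23rg1 and Rpsa, detected on 0 arrays, and Rpl39l, detected on 1. Their values lay between 4.56 and 5.77, near background. For Rpsa this held on each of its 2 probes, so these probes carry no information on the transcript.

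Some members are paralogs that can take a ribosomal protein's place. Rpl22 is needed in mice for the development of αβ T cells, and Rpl22l1 is its paralog. Rpl22 was 10.73, 10.49 and 10.98 in Blimp1 +/gfp and 10.74, 10.89 and 10.71 in Blimp1 gfp/gfp, a difference of 0.05 ± 0.17, and Rpl22l1 differed by 0.35 ± 0.22 (limma, Benjamini-Hochberg adjusted p = 0.465). Rpl22l1 was lowest in Blimp1 +/gfp replicate 3 (8.30) and between 8.87 and 9.17 elsewhere, and without that array its difference was 0.13. Rpl36al, an autosomal copy of the X-linked Rpl36a, had the largest difference of all members. It was 6.99, 5.98 and 5.83 in Blimp1 +/gfp and 7.34, 6.93 and 7.11 in Blimp1 gfp/gfp, a difference of 0.86 ± 0.32 and a 1.81-fold ratio (95% interval 1.08 to 3.05; limma, Benjamini-Hochberg adjusted p = 0.206). Blimp1 +/gfp replicate 1 lay inside the Blimp1 gfp/gfp range, so the groups overlapped. The difference was 0.36 with no background correction, 0.47 with a normexp offset of 50 and 0.65 to 1.23 with 1 array left out.

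Rpl36a itself differed by -0.02 ± 0.15. Rps27l, a p53 target, differed by 0.01 ± 0.20 and Rps27 by 0.08 ± 0.13. Rpl7l1, whose yeast relative acts in large subunit assembly, differed by 0.17 ± 0.15 and Rpl7 by 0.03 ± 0.16. Rps19bp1 bears the prefix but is a binding partner of Rps19, and differed by 0.15 ± 0.16. Members on chromosome X were Rpl10 (0.12 ± 0.13), Rpl36a and Rpl39 (-0.05 ± 0.15), the last of which lies in the exit tunnel. None of these passed in limma (Benjamini-Hochberg adjusted p from 0.628 to 0.993).

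More than 1 probe was kept for 13 members, and 6 of these had probes whose differences had opposite signs. Rps9 had 5 kept probes, with differences from -0.09 to 0.21 and standard errors between 0.14 and 0.16. Its probe at 0.21 was 14.28, 14.39 and 14.33 in Blimp1 +/gfp and 14.40, 14.62 and 14.61 in Blimp1 gfp/gfp, without overlap. The 2 kept probes of Rpl28 had means of 15.13 and 7.28 and differences of 0.07 and -0.42, and those of Rpl27a had 12.05 and 6.49 with -0.01 and 0.38. The dimmer Rpl27a probe was 6.21, 6.23 and 6.45 in Blimp1 +/gfp and 6.69, 6.70 and 6.64 in Blimp1 gfp/gfp, without overlap. The 3 probes of Rpl21 had one direction, at 0.37, 0.47 and 0.62. The probe at 0.62 was 6.61, 6.20 and 6.76 in Blimp1 +/gfp and 7.28, 7.01 and 7.12 in Blimp1 gfp/gfp, without overlap. The other Rpl21 probes overlapped between the genotypes. Rpl37 had 2 further probes detected on 0 arrays beside the used one at 15.49. When each kept probe was tested by itself, 0 of the members' 70 probes passed (limma, Benjamini-Hochberg adjusted p under 0.05; smallest 0.165). RefSeq lists 146 pseudogenes named after 36 of the 52 members, 15 of them after Rpl21, and the probes may bind such copies, so each value is uncertain in its source.

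Within a genotype, the arrays ranked in a common order for the 22 members with a mean under 14. Replicate 1 was the highest of its genotype for 14 of these 22 in Blimp1 +/gfp (63.6%) and for 16 in Blimp1 gfp/gfp (72.7%). Among the other tested genes under 14 these shares were 43.2% and 45.2%. Blimp1 +/gfp replicate 3 was the lowest of its genotype for 19 of 22 (86.4%, against 44.0% of other genes), and Blimp1 gfp/gfp replicate 2 for 15 of 22 (68.2%, against 39.6%).

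The mean over the 22 was 10.19, 10.02 and 9.71 in Blimp1 +/gfp and 10.37, 9.92 and 10.04 in Blimp1 gfp/gfp, so the range within each genotype was wider than the gap between them. The mean over the 30 bright members was 14.96, 14.92 and 14.98 against 15.04, 14.97 and 14.99, in which Blimp1 gfp/gfp kept that order over a smaller range and Blimp1 +/gfp did not. Hba-a1, the hemoglobin chain of red cells, ranked the opposite way within each genotype, at 5.78, 8.18 and 13.40 in Blimp1 +/gfp and 9.83, 12.90 and 11.31 in Blimp1 gfp/gfp. The 3 tested erythroid markers summed to a log2 level of 7.11 to 13.44 and 10.03 to 12.96. Of these, Alas2 ranked as Hba-a1 did (5.36, 5.48 and 7.69 against 5.83, 7.8 and 6.77). Klf1, detected on 3 arrays, was 5.39, 5.46 and 5.5 against 6.26, 6.13 and 5.91. Its order was opposite to that of the members among the Blimp1 +/gfp arrays only. Among the Blimp1 gfp/gfp arrays, Klf1 was highest on replicate 1, as the members were. The 4 antigen presentation markers summed to 13.70 to 16.08 in Blimp1 +/gfp and 13.40 to 14.19 in Blimp1 gfp/gfp. Within Blimp1 +/gfp all 4 were highest on replicate 3, as H2-Ab1 was (11.62, 11.70 and 14.47). Within Blimp1 gfp/gfp, H2-Ab1 was highest on replicate 1 (12.28, 11.34 and 11.08). The 5 tested myeloid markers summed to 11.20 to 13.48 and 11.51 to 12.15, a sum over genes with differences of both signs. Of these Cebpa, a transcription factor of myeloid cells, was higher by 2.37 ± 0.28 (limma, Benjamini-Hochberg adjusted p = 0.00872). Lyz2, Fcer1g, Tyrobp and Mpo did not pass and differed by -2.33 ± 0.79, -2.26 ± 0.97, -1.31 ± 0.81 and 0.64 ± 0.52. Within Blimp1 +/gfp, Fcer1g (8.98, 9.73 and 12.91) and Tyrobp (6.97, 6.90 and 9.89) were highest on replicate 3, the lowest array for 19 of the 22 members. Within Blimp1 gfp/gfp both were highest on replicate 1, as the members were. The part of these cells in the order of the arrays was not tested.

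**Figure D4:**
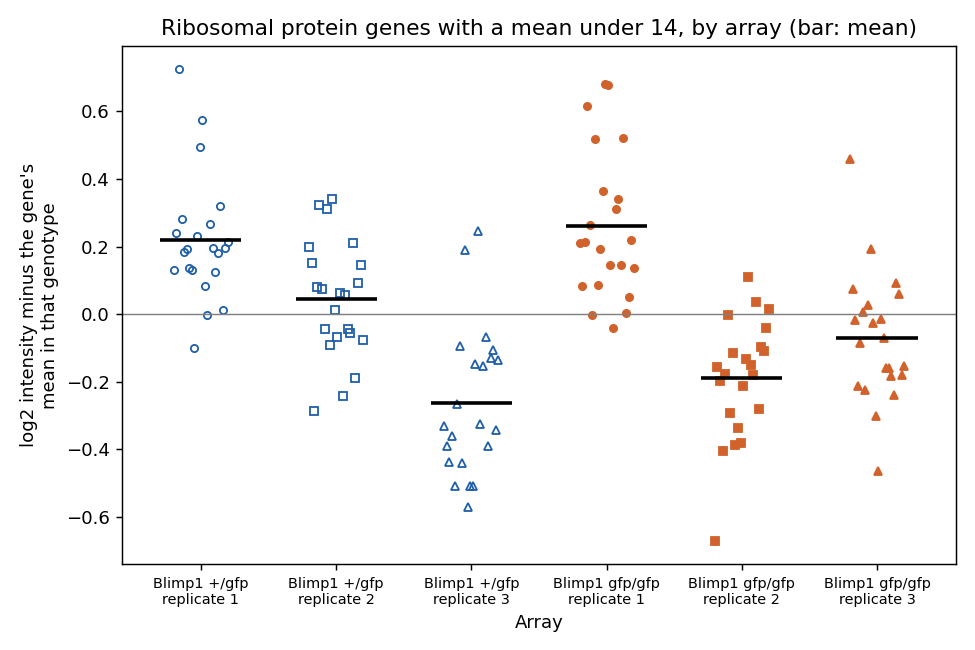
For the 22 members with a mean under 14, each point is the log2 intensity on an array minus that gene's mean in the genotype (y axis), and black bars are means over the members. The bars stand at 0.22, 0.04 and -0.26 for the Blimp1 +/gfp replicates and at 0.26, -0.19 and -0.07 for the Blimp1 gfp/gfp replicates.

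Genes that make and serve the ribosome were compared from lists. Beside the counts below, 2.42% of all 8743 genes were higher and 1.69% lower in limma (Benjamini-Hochberg adjusted p under 0.05). At an unadjusted p under 0.05 in limma these shares were 11.3% and 7.22%. The median difference of all genes was 0.032. Of 70 tested genes of the mitochondrial ribosome, which translates the messages of mitochondrial DNA, 0 passed in limma (Benjamini-Hochberg adjusted p under 0.05; at an unadjusted p under 0.05, 2 higher and 0 lower), and the median difference was 0.107. The smallest p were those of Mrpl52 (0.51 ± 0.14) and Mrpl13 (0.45 ± 0.17), both of the large mitochondrial subunit. Of 53 ribosome biogenesis genes, which process ribosomal RNA and assemble the subunits in the nucleolus, 0 passed in limma (Benjamini-Hochberg adjusted p under 0.05; at an unadjusted p under 0.05, 8 higher and 0 lower), with a median of 0.231.

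Tsr1, an assembly factor of the small subunit, was 7.51, 7.54 and 7.35 in Blimp1 +/gfp and 8.57, 8.03 and 8.23 in Blimp1 gfp/gfp. The groups did not overlap, and the difference of 0.81 ± 0.18 had a limma, Benjamini-Hochberg adjusted p of 0.0591. That p was 0.0325 with median scaling and reached 0.167 among the alternatives. Rrp12, which acts in export of both subunits, differed by 0.56 ± 0.16.

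A list of 33 tested genes held translation factors and other genes known for messages with the pyrimidine tract, among them Fau and, outside translation, Vim, Hnrnpa1 and Cct4. Of these 33, 1 was higher and 0 lower (limma, Benjamini-Hochberg adjusted p under 0.05), with a median of 0.220. The 1 gene was the X-linked Eif2s3x, a subunit of initiation factor eIF2, at 10.74, 10.80 and 10.29 against 11.43, 11.43 and 11.49 (difference 0.84 ± 0.17; limma, Benjamini-Hochberg adjusted p = 0.0491). Its call ended with each single array left out (0.0649 to 0.167), with median scaling (0.0564) and with no normalization, no filter or the replicate block. Its Y-linked partner Eif2s3y differed the other way by -5.34 ± 0.16, with the values given above (limma, Benjamini-Hochberg adjusted p = 7.59e-05). Xist, the transcript of the inactive X chromosome, was 9.69, 9.20 and 5.52 against 9.89, 11.37 and 11.02. The part of the sex of the source animals in the difference of Eif2s3x was not tested. Fau, which encodes the small subunit protein eS30 under a symbol without the prefix, was 15.45, 14.96 and 15.10 against 14.91, 14.89 and 14.99, a difference of -0.24 ± 0.16. Rack1, a further protein of the small subunit, was not among the tested genes.

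Of 23 translation control genes (mTOR, S6 kinase and Myc network), 0 passed in limma (Benjamini-Hochberg adjusted p under 0.05; at an unadjusted p under 0.05, 0 higher and 1 lower), with a median of 0.053. The lowest p was that of Mxd1, an antagonist of Myc, at 11.35, 11.81 and 10.39 in Blimp1 +/gfp and 9.21, 9.76 and 9.68 in Blimp1 gfp/gfp. The groups did not overlap, and the difference of -1.63 ± 0.37 had a limma, Benjamini-Hochberg adjusted p of 0.0636. That p was 0.0123 without Blimp1 +/gfp replicate 3, its lowest array in that genotype, and reached 0.185 among the alternatives. Mlx, a partner of the Mxd proteins, differed by 0.45 ± 0.20. Whether any of these lists differed from the ribosomal protein genes was not tested.

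**Figure D5:**
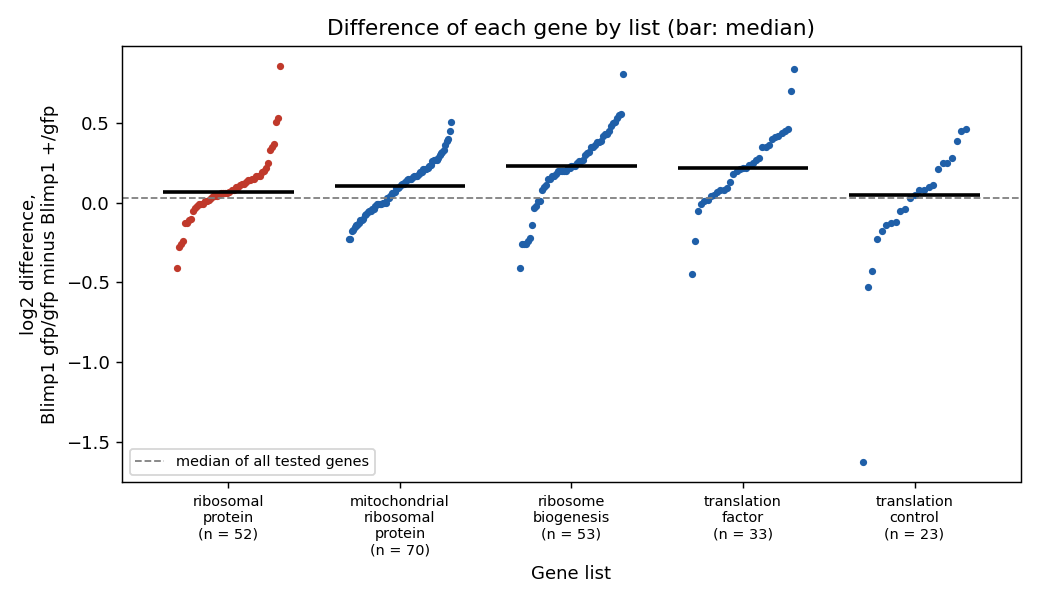
The log2 difference of each tested gene (points, y axis) is shown for the ribosomal protein genes (red) and the other lists (blue; the one named translation factors also holds other genes with the pyrimidine tract), with the median of each as a bar and that of all tested genes, 0.032, as a dashed line. The bar of the ribosomal protein genes stands at 0.067, near the dashed line, and the point at -1.63 is Mxd1.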

How the data were processed

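RNA was amplified, labelled with Cy3 and hybridised, per the labels' protocols. The deposited intensity table gives a linear mean bead intensity per probe, without background subtraction by its values (lowest 67.9 to 80.5), and, per the file headers, a detection p-value. The submitters' processing notes name BeadStudio and limma, with no version or setting in the sources used here. The authors' deposited log2 values differed from limma's neqc of the intensities by a median of 0.00293 and served to choose probes and as an alternative.

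Intensities were processed with neqc (normexp from detection p-values, offset 16, quantile normalization, log2) in limma 3.58.1 under R 4.3.3. The offset compresses dim signals, and quantile normalization gives every array the same highest values. Genotypes were compared with lmFit and eBayes over 8743 genes, as Blimp1 gfp/gfp minus Blimp1 +/gfp. P-values were adjusted by the Benjamini-Hochberg method. Symbols came from the platform annotation. The code was tested on simulated data. Arrays with the same replicate number also share a BeadChip section. Their deviations from the genotype means correlated at 0.19, -0.08 and 0 over all genes, so they were not treated as pairs. Over the members these correlations were 0.57, -0.38 and 0.29 for replicates 1, 2 and 3, and a replicate block was among the alternatives.

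The members and lists were chosen with earlier results of these data known. Named genes were the 5 highest and 5 lowest differences, the 5 brightest and 3 dimmest members, stalk genes, paralog pairs, Rpsa, Rps19bp1, Fau, Rack1, Prdm1 and, per list, up to 4 changed genes or else the 2 with the smallest p; further members were chosen after their values were seen, and 1 item of the rule is not reported here. Figures were drawn with matplotlib 3.10.9.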

Additional observations from a re-analysis of the deposited data

How the results depend on the processing

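Among 21 alternatives, the count of ribosomal protein genes past the threshold stayed at 0 in limma in all but an unadjusted p under 0.05, where it was 3 (Rpl14, Rpl36al and Rps3a1). The smallest adjusted p reached 0.0566 without Blimp1 +/gfp replicate 1 and 0.0573 with array weights. Scaling moved the whole table: the median over all genes was 0.164 with median scaling, 0.176 with no normalization and 0.003 with cyclic loess, and the members' median was 0.166, 0.177 and 0.021. Omissions of an array gave the members a median of 0.034 to 0.093.

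The count over all genes was 827 with array weights, 171 with the replicate block, 668 at an adjusted p under 0.10, 1619 at an unadjusted p under 0.05 and 87 to 366 with an array left out. At an unadjusted p under 0.05 in limma, 2 mitochondrial ribosomal, 8 biogenesis, 5 genes of the translation factor list and 1 translation control gene passed. The share over all genes was 18.5%. The biogenesis count was also 1 with median scaling, no normalization and an adjusted p under 0.10, and 2 with array weights. The translation factor count was 0 with median scaling, no normalization, no filter, every kept probe and the replicate block, 2 with array weights and 0 to 0 with an array left out. The translation control count was 1 with normexp at offset 50, no background correction, trend and robust, array weights and an adjusted p under 0.10, and 0 to 1 with an array left out. The replicate block changed no other call among the lists.

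Some dim members also changed in size: without background correction the difference of Rpl14 was 0.22, of Rpl4 0.26 and of Rps15a -0.18, and with an array left out that of Rps15a was -0.72 to -0.21 and of Rpl29 -0.44 to -0.14. Rpl34 was at -0.01 and Fau at -0.10 without Blimp1 +/gfp replicate 1, and Rps19bp1 at 0.02 without Blimp1 +/gfp replicate 3. With the mean over its probes Prdm1 differed by 1.44 and did not pass in limma (Benjamini-Hochberg adjusted p = 0.102). Differences near 0 had no stable sign. Cyclic loess gave -0.01 for Rps9, -0.04 for Rpl37 and -0.04 for Rpl41. Median scaling and no normalization gave 0.08 and 0.09 for Rpl36a, and 0.02 and 0.03 for Rpl39. Array weights gave 0.17 for Rps19, -0.03 for Rplp0, -0.01 for Rpl7, 0.01 for Rpl39 and -0.18 for Rps27l, and the deposited log2 values -0.01 for Rps27l. With an array left out, the differences ran from -0.01 to 0.11 for Rpl37, -0.26 to 0.30 for Rps19, -0.14 to 0.31 for Rplp0, -0.05 to 0.15 for Rpl7, -0.08 to 0.17 for Rpl22, -0.08 to 0.09 for Rpl36a, -0.11 to 0.05 for Rpl39 and -0.17 to 0.10 for Rps27l. The cause was not tested. The 3 arrays per genotype limit precision, and most of all for members close to background.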
